A study of Mus musculus with 28 samples.

Results

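H3K9Ac, acetylation of lysine 9 on histone H3, was profiled by chromatin immunoprecipitation with sequencing in IDG-SW3 cells at day 35 and at day 3 of osteogenic culture. Chromosomes 1 to 19 held 55398 called H3K9Ac regions at day 35 and 50516 at day 3. Over all chromosomes the lists held 56355 and 51466 regions at those days, of 937290 regions in 26 lists of the series. IDG-SW3 is a clonal mouse bone cell line that carries a GFP transgene driven by the Dmp1 promoter and a temperature-sensitive SV40 large T antigen under an interferon-inducible H-2K promoter, so reads from those promoters also count at Dmp1 and H2-K1. For both days the cells were expanded at 33 °C with 50 U/mL interferon gamma and were then moved to 37 °C in medium with ascorbic acid and β-glycerol phosphate and without interferon gamma. Day 35 and day 3 therefore both follow the withdrawal of interferon gamma and the change of temperature, and neither H3K9Ac library is labelled as given 1,25(OH)2D3. Per the labels' protocols, calcified matrix of differentiated cells was dissolved with EDTA and the cells were broken up with a Polytron before lysis, a step that comes with maturity and cannot be told apart from it. There was 1 library a day, so no difference between the days has a replicate check, and no test was made. The libraries also differed over broad stretches of chromosome 10 and in the covered length of whole chromosomes, with values given below. The members are all regions of both lists and, for coverage, all 21281 autosomal protein-coding genes of the GENCODE M1 annotation.

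Acetyl groups are placed on H3K9 mainly by the GCN5 and PCAF family of acetyltransferases and removed by histone deacetylases. The mark is found around active transcription start sites and at active enhancers, usually together with H3K27Ac, and it tends to spread into the body of strongly transcribed genes. In bone, osteoblasts make collagen-rich matrix, stop dividing and mineralize it, and some become osteocytes embedded in that matrix.

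The following promoter sequences are shown because they belong to the groups of genes whose promoter coverage was lower at day 35, the interferon-response genes first and the cell-cycle and histone genes after them, and, last, to one of the promoters with the largest rise. Each is the 300 bases from 250 bases before the transcription start site (TSS) to 50 bases from the TSS on, read 5′ to 3′ on the gene's strand from NCBIM37 (mm9). Capitals mark the interferon-stimulated response element (GAAANNGAAA) in Ifit1, Oas2 and Cxcl10, the gamma-activated site (TTCCNNGAA) in Irf8, the CCAAT box in Ccnb2, Hist1h2ak and Gins2, and the cyclic AMP response element (TGACGTCA) in Skil, each matched on both strands.
Ifit1, chr19:34715111-34715410, plus strand: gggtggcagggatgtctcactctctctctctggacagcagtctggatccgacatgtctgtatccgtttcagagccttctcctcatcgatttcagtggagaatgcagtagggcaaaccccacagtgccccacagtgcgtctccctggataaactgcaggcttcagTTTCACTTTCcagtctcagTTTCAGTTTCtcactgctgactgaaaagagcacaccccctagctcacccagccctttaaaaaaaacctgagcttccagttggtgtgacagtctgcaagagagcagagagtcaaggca
Oas2, chr5:121199813-121200112, minus strand: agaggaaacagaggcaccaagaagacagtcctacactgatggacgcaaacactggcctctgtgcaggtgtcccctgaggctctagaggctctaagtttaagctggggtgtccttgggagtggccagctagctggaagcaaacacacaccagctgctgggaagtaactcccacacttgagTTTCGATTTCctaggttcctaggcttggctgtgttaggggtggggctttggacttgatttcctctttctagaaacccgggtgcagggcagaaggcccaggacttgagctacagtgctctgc
Cxcl10, chr5:92777866-92778165, minus strand: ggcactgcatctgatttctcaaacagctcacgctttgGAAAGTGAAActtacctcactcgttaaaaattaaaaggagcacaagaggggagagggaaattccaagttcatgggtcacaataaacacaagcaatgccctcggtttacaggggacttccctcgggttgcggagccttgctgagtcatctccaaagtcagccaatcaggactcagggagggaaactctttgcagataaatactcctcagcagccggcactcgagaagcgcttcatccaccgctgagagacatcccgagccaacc
Irf8, chr8:123260008-123260307, plus strand: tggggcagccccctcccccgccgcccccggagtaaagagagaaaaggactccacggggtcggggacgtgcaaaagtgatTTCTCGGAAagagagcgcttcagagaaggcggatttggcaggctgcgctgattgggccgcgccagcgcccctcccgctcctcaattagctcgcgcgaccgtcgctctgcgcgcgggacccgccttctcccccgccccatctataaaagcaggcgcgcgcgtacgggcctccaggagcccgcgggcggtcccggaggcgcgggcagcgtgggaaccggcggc
Ccnb2, chr9:70269312-70269611, minus strand: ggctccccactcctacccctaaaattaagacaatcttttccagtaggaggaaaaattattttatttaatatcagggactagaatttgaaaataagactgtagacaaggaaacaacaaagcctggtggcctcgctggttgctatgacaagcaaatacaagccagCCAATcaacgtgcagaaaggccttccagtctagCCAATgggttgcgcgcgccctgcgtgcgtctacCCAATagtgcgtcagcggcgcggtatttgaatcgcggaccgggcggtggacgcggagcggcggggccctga
Hist1h2ak, chr13:21845727-21846026, minus strand: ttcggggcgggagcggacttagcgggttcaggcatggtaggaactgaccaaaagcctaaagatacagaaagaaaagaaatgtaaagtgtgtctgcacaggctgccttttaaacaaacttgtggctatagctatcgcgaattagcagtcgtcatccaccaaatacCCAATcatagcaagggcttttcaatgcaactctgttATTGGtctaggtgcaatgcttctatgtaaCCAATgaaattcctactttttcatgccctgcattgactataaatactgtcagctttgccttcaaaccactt
Gins2, chr8:123113155-123113454, minus strand: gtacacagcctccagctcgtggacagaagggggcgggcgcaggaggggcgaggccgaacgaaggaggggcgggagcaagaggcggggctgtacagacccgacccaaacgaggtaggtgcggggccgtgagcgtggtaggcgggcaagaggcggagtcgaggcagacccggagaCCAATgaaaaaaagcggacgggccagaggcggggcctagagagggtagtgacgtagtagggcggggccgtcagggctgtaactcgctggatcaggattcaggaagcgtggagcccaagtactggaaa
Skil, chr3:30993730-30994029, plus strand: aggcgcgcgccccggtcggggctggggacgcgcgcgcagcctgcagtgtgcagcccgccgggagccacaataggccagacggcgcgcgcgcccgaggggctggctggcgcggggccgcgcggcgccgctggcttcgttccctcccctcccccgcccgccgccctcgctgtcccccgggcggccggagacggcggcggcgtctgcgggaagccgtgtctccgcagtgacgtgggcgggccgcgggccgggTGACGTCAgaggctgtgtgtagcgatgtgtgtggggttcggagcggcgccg

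The question at promoters was which genes gained or lost H3K9Ac as the cells matured. For each gene the percent of the window of 2 kb on each side of the TSS that called regions covered was taken at each day, and a promoter was called higher or lower where this coverage changed by over 25 percentage points. At most promoters the coverage was alike at both days. The mean coverage was 40.2% at day 35 and 40.9% at day 3, the median change was 0 points, and 78.6% of promoters changed by at most 10 points. H3K9Ac touched 12288 promoters at both days, 493 at day 35 alone and 398 at day 3 alone, and 8102 at neither day. A total of 662 promoters were higher at day 35 (3.11% of all) and 647 were lower (3.04%). In a bulk culture, fewer cells with the mark and a narrower mark per cell cannot be told apart. Just inside and just outside the threshold lay Plcd1 at 25.1 points and 1700063H04Rik at 24.9 points.

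Promoters called higher or lower mostly differed in how far H3K9Ac reached, less often in its presence at the TSS. Of the 662 higher promoters, 168 had no H3K9Ac at day 3, and of the 647 lower ones, 88 had none at day 35. At the TSS itself, regions covered 89.9% of the higher promoters at day 35 and 56.7% at day 3, and 68.8% of the lower promoters at day 35 and 93.0% at day 3. At 1 kb upstream the contrast was wider, with 64.0% at day 35 and 14.2% at day 3 for the higher promoters, and 20.1% at day 35 and 77.9% at day 3 for the lower ones. These values use the contrast that chose the promoters and describe its shape only. Over all promoters the profiles of the days lay nearly on each other.

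**Figure D1:**
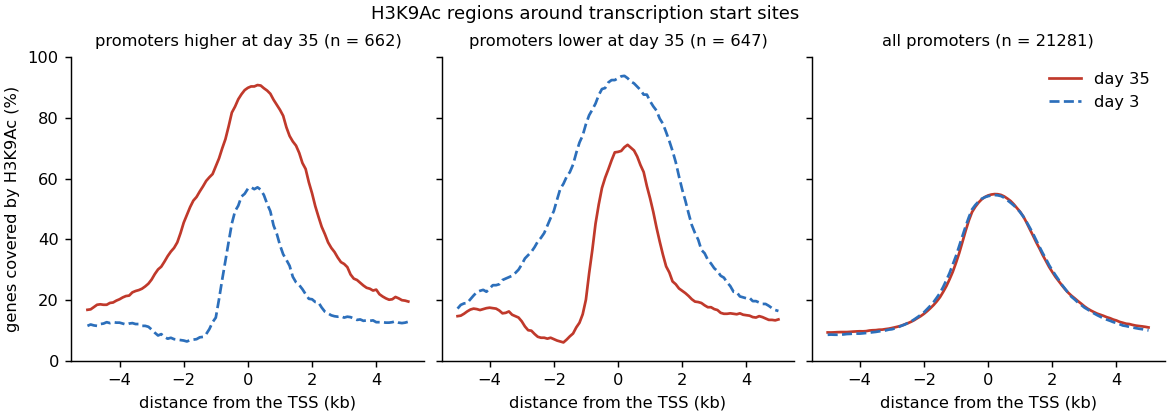
Share of genes covered by an H3K9Ac region (percent, y axis) at each distance from the TSS (kb, x axis, negative upstream), at day 35 (solid) and day 3 (dashed), for promoters called higher, called lower and for all 21281. At the TSS the higher promoters were covered in 89.9% at day 35 and 56.7% at day 3, the lower ones in 68.8% at day 35 and 93.0% at day 3.

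The 10 largest rises were taken among promoters at which H3K27Ac and H4K5Ac moved the same way by over 10 points. Ncf1, a subunit of the NADPH oxidase of phagocytes, and Gm7120 had 100% of their promoters covered at day 35 and 0% at day 3, and Cd28, a co-stimulatory receptor of T cells, had 98.5% at day 35 and 0% at day 3. With the transcript start of the highest coverage the change at Cd28 was 0 points. The promoter of Gm7120 was also covered in 100% at both days by H3K9me3, a mark of silent chromatin, and how uniquely reads align there was not tested. Gm10271, also with 100% at day 35 and 0% at day 3, lies in a broad stretch of chromosome 10 described below. Skil, an inhibitor of Smad signalling that TGF-beta induces, had 100% of its promoter covered at day 35 and 0% at day 3. Bmp2, a bone morphogenetic protein that drives osteoblast differentiation, had 95.0% covered at day 35 and 0% at day 3. H3K27Ac, which the choice of these genes used, stood at 99.1% at day 35 and 0% at day 3 for Skil, and at 98.5% at day 35 and 0% at day 3 for Bmp2. Col11a2, a chain of the minor fibrillar collagen XI, had 90.7% covered at day 35 and 0% at day 3, and Col13a1, a transmembrane collagen, had 98.5% at day 35 and 12.5% at day 3. Chst13, a chondroitin sulfotransferase, had 88.9% at day 35 and 0% at day 3, and Slc8a3, a sodium-calcium exchanger, had 88.6% at day 35 and 0% at day 3.

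The 10 largest falls were taken by the same rule. Hist1h4k and Hist1h3d, which encode replication-dependent histones H4 and H3, had 0% of their promoters covered at day 35 and 100% at day 3. Hist1h2ak and Hist1h2bn start less than 1 kb apart in opposite directions, share most of their window and both had 21.1% covered at day 35 and 100% at day 3. Iigp1, an interferon-inducible GTPase, had 19.8% at day 35 and 97.9% at day 3, and Trim14, an interferon-induced adaptor of antiviral signalling, had 12.5% at day 35 and 94.4% at day 3. Apol10b, an apolipoprotein L gene, had 26.4% at day 35 and 100% at day 3. Msx2, a homeodomain factor of early osteoblasts and the limb, had 22.3% at day 35 and 100% at day 3. Ppl, the desmosomal plakin periplakin, had 12.5% at day 35 and 99.3% at day 3, and Foxh1, a Smad partner in nodal signalling, had 25.7% at day 35 and 100% at day 3.

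**Figure D2:**
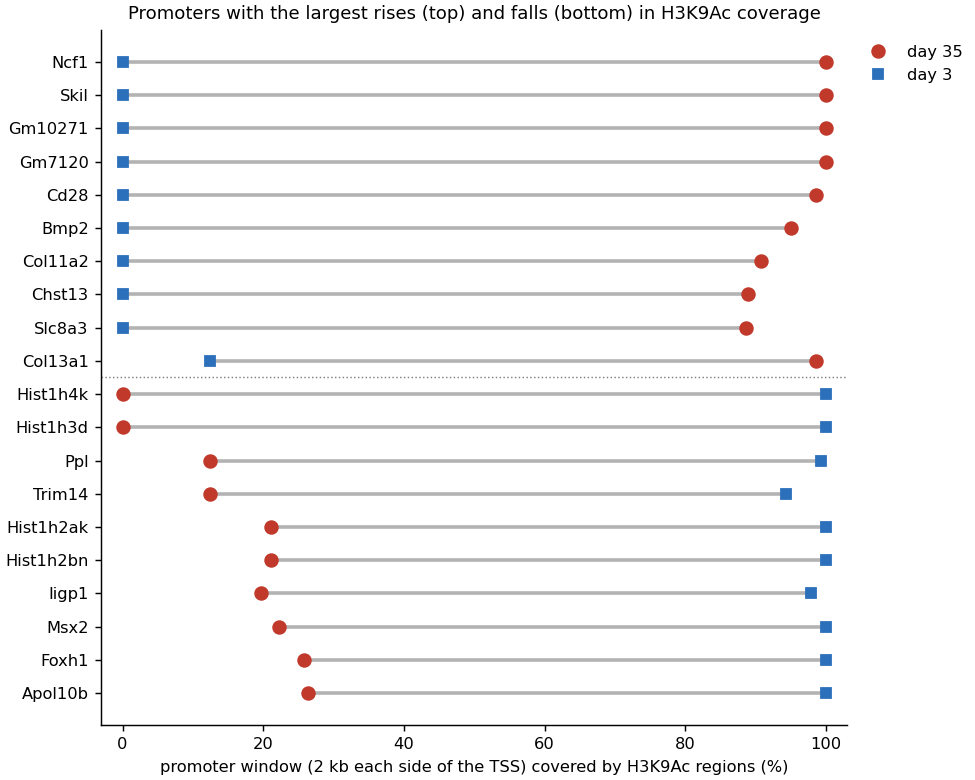
Percent of the promoter window covered by H3K9Ac regions (x axis) at day 35 (circles) and day 3 (squares) for the 10 promoters with the largest rises (upper) and the 10 with the largest falls (lower) by the rule that H3K27Ac and H4K5Ac moved the same way. Each of the 10 upper genes has at least 88.6% at day 35, and each of the 10 lower ones has at least 94.4% at day 3.

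Interferon-response genes had lower promoter coverage at day 35 in 10 of 32 listed members, beside 3.04% of all promoters, and higher coverage in 0. A change of exactly 0 was found at 6 members, and the median change was −13.4 points, against 0 over all promoters. In a window of 1 kb on each side 7 members were lower, and in one of 5 kb 13 were. Among the antigen-presentation genes, Cd74, the invariant chain of MHC class II, had 11.97% of its promoter covered at day 35 and 72.7% at day 3, and H2-Aa, a class II chain, had 20.5% at day 35 and 70.1% at day 3. Psmb8, a subunit of the immunoproteasome, had 57.1% at day 35 and 96.2% at day 3. H2-K1, a class I heavy chain whose promoter also drives the large T transgene, had 52.3% at day 35 and 79.8% at day 3.

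Regulators and effectors of the response showed the same direction. Irf8, an interferon regulatory factor, had 33.4% of its promoter covered at day 35 and 71.8% at day 3. The chemokine Cxcl10 had 26.4% at day 35 and 70.0% at day 3. Oas2, an antiviral oligoadenylate synthetase, had 0% at day 35 and 60.8% at day 3, and Ifit1, an RNA-binding antiviral protein, had 71.2% at day 35 and 100% at day 3. Some members kept full promoter coverage at both days, among them Isg15, Socs1, B2m, Gbp5 and Irgm1. By gene name, 5 of 12 Oas genes and 7 of 21 Ifit and Ifi genes were lower, and 0 and 2 were higher. Of 35 H2 genes 6 were lower and 0 higher, and of 11 guanylate-binding protein genes 1 was lower and 0 higher. These counts stand beside 3.04% of all promoters lower and 3.11% higher.

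Over the gene bodies, where a change of over 10 points of the gene's length was called, the interferon genes had the same direction. All genes had 1690 bodies higher (7.94%) and 985 lower (4.63%), and the interferon list had 17 of 32 lower and 0 higher, with a median change of −10.7 points. Irf1, which was not called at its promoter, had 39.5% of its body covered at day 35 and 91.1% at day 3. Tap1, a peptide transporter for class I, had 43.7% at day 35 and 100% at day 3. Irf9, the DNA-binding subunit of the type I interferon complex, had 26.3% at day 35 and 68.0% at day 3. Psmb9 had 33.1% at day 35 and 70.3% at day 3, and Igtp, an immunity-related GTPase, had 31.7% at day 35 and 64.8% at day 3. Ifi27l1 and Apol6 were among the 10 genes of at least 5 kb with the largest falls over the body: Ifi27l1 had 34.5% at day 35 and 100% at day 3, and Apol6 had 39.8% at day 35 and 83.2% at day 3.

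Motifs were also counted at the promoters of the interferon list. That list was chosen by gene function with earlier results of these data known, so the shares describe the list and are no independent support. Of the 32 members, called or not, 14 (43.8%) held GAAANNGAAA within the 300 bases around the TSS, against 3.73% of all promoters. The gamma-activated letters TTCCNNGAA were in 7 (21.9%), against 4.61%, and 18 members held either motif, against 8.06% of all. Ifit1, printed above, holds the first motif at a pair of sites. A match is a description of letters and not of binding.

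Genes of DNA replication and mitosis had lower promoter coverage in 5 of 33 members, beside 3.04% of all promoters, and higher in 0, with a median change of −11.6 points. Aurkb, the kinase of the chromosomal passenger complex, had 50.3% covered at day 35 and 100% at day 3. Ccne1, cyclin E1 of the G1 to S transition, had 61.5% at day 35 and 100% at day 3. Ccnb2, a mitotic cyclin, had 30.0% at day 35 and 63.9% at day 3, Bub1, a spindle checkpoint kinase, had 41.4% at day 35 and 70.8% at day 3, and Gins2, a subunit of the replicative helicase, had 50.3% at day 35 and 76.3% at day 3. The proliferation marker Mki67 had 61.6% at day 35 and 81.0% at day 3, under the threshold. In a window of 1 kb on each side of the TSS 1 member of this list passed.

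Over gene bodies 11 of the 33 were lower and 1 was higher, beside 4.63% lower and 7.94% higher of all bodies, with a median change of −7.45 points. Cdt1, the licensing factor of replication origins, had 36.4% of its body covered at day 35 and 100% at day 3. Ccne2, the second cyclin E, had 16.7% at day 35 and 53.1% at day 3. Cdk1, the mitotic kinase, had 37.0% at day 35 and 63.4% at day 3, Ccna2 had 40.2% at day 35 and 67.1% at day 3, and Mcm7, a helicase subunit, had 67.5% at day 35 and 100% at day 3. The exception was Cdc6, a partner of Cdt1 in licensing, with 57.3% at day 35 and 39.4% at day 3. Stmn1, the microtubule regulator stathmin, had 32.4% at day 35 and 76.5% at day 3. Among regulators of G1, Cdk4 had 47.6% of its body covered at day 35 and 100% at day 3, while Ccnd1, cyclin D1, had 80.1% at day 35 and 34.8% at day 3.

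The replication-dependent histone genes of the Hist1 cluster had lower coverage at 16 of 55 promoters, beside 3.04% of all promoters, and higher coverage at 0, with a median change of −12.5 points. All 55 lie on chromosome 13 and 48 start within 4 kb of another, so their windows overlap and they are not independent, and sequences shared among them may split or lose reads in the authors' alignment. Of the 803 other genes of chromosome 13, 23 promoters were lower (2.86%). Of the 11 Hist2 and Hist3 genes, 0 promoters were lower and 1 was higher. H3f3b, which encodes the replication-independent histone H3.3, moved the other way, with 100% of its promoter covered at day 35 and 22.2% at day 3. The CCAAT box was in 46 of the 55 Hist1 promoters (83.6%) and in 25 of the 33 promoters of the replication and mitosis list (75.8%), against 37.6% of all promoters.

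Bone genes differed between the days both at promoters and over bodies, and several of them were fully covered at both days. Runx2 and Sp7, the transcription factors that specify osteoblasts, and Col1a1, the main chain of bone collagen, had 100% of their promoters covered at day 35 and at day 3. Of 20 osteoblast genes, 3 promoters were higher and 1, Msx2, was lower, beside 3.11% higher and 3.04% lower of all promoters. Ibsp, bone sialoprotein of mineralizing matrix, had 87.5% of its promoter covered at day 35 and 16% at day 3. Dlx3, a homeodomain factor of late osteoblasts, had 100% at day 35 and 53.01% at day 3, and Pth1r, the receptor of parathyroid hormone, had 42.8% at day 35 and 0% at day 3. Over the body 7 of the 20 were higher and 1 was lower, beside 7.94% of all bodies higher and 4.63% lower. There Pth1r had 81.4% at day 35 and 30.8% at day 3, Ibsp had 50.6% at day 35 and 0% at day 3, and Dlx3 had 100% at day 35 and 37.0% at day 3. Alpl, the phosphatase that frees phosphate for mineral, had 65.6% at day 35 and 44.8% at day 3, and Runx2, a gene of 319 kb, had 40.3% at day 35 and 27.7% at day 3.

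Osteocyte genes had 1 of 15 promoters higher and 0 lower, beside 3.11% of all promoters higher, and 0 higher in the window of 1 kb on each side. Their bodies were higher in 4 and lower in 0, beside 7.94% of all bodies higher. The promoter that was higher was that of Gja1, connexin 43 of the gap junctions between osteocytes, with 100% at day 35 and 67.9% at day 3. Dmp1, a phosphoprotein of the osteocyte matrix, had 100% of its promoter covered at both days, with 47.0% of the body at day 35 and 40.9% at day 3. Mepe, a matrix phosphoglycoprotein, had 31.6% of its body covered at day 35 and 13.7% at day 3, and Sost, the osteocyte inhibitor of Wnt signalling, had 10.97% at day 35 and 0% at day 3. Dkk1, another Wnt inhibitor, had 56.5% at day 35 and 22.8% at day 3. Tnfsf11, the osteoclast factor RANKL, had 49.5% of its promoter covered at day 35 and 27.1% at day 3, under the threshold. The promoter of Fgf23, the phosphate-regulating hormone, had 0% at both days. Of 14 mineralization genes, 4 bodies were higher and 0 lower, among them Phospho1, a phosphatase of matrix vesicles, with 64.1% at day 35 and 15.6% at day 3, and Smpd3, a sphingomyelinase needed for mineralization, with 16.8% at day 35 and 0% at day 3.

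Signalling pathways differed in how many members were called, beside 3.11% of all promoters higher and 3.04% lower, and 7.94% of all bodies higher and 4.63% lower. Of 32 genes of the BMP and TGF-beta pathway, 3 promoters were higher, those of Bmp2, Skil and Bmp3, a BMP antagonist, with 55.4% at day 35 and 0% at day 3, and 0 were lower, while 8 bodies were higher and 1 lower. Of 25 Wnt genes, 0 promoters passed and 7 bodies were higher, 0 lower. Sfrp2, a secreted Wnt modulator, had 80.9% of its body covered at day 35 and 49.7% at day 3, Nkd2, a feedback inhibitor, had 28.1% at day 35 and 3.05% at day 3, and Ctnnb1, β-catenin, had 31.3% at day 35 and 16.4% at day 3. Of 17 genes of FGF and ERK feedback, 4 bodies were higher and 1 lower, with Spry1, a feedback inhibitor, at 100% at day 35 and 42.3% at day 3. Ihh, the hedgehog ligand of growth cartilage, had 41.6% of its promoter covered at day 35 and 0% at day 3, the 1 promoter called among 12 hedgehog genes, of which 1 body was higher and 1 lower. In the Notch pathway 2 of 14 promoters were lower and 0 higher, and 1 body was higher and 0 lower: Rbpj, its DNA-binding factor, had 10.5% at day 35 and 46.7% at day 3, and Hey2, a target, had 33.3% at day 35 and 63.1% at day 3.

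Metabolic and secretory groups differed in their counts over bodies, to be read against 7.94% of all bodies higher and 4.63% lower. The shares over all genes, here and above, include 8102 genes whose promoters had H3K9Ac at neither day. Lists of other functions also stood above 7.94%, with 22.2% of circadian clock bodies and 20.8% of those of acetylation writers, erasers and readers higher. Of the 10 housekeeping bodies 0 were. A higher share is therefore not particular to the groups named. Of 19 genes of hypoxia and glycolysis, 9 bodies were higher and 1 lower, with a median change of 8.51 points. Aldoa, aldolase A, had 100% covered at day 35 and 64.4% at day 3, Eno1, enolase 1, had 63.4% at day 35 and 37.3% at day 3, Pkm2, pyruvate kinase, had 56.4% at day 35 and 30.9% at day 3, and Vegfa, the angiogenic factor, had 58.5% at day 35 and 37.9% at day 3. The glucose transporter Slc2a1 went the other way, with 28.1% at day 35 and 39.6% at day 3. Of 20 genes of the unfolded protein response and secretion, 6 bodies were higher and 0 lower, with Herpud1, a factor of ER-associated degradation, at 100% at day 35 and 45.4% at day 3. Of 22 lysosome and autophagy genes 5 bodies were higher and 1 lower, and of 27 cytosolic ribosomal protein genes 8 were higher and 1 lower. Of 21 genes of oxidative phosphorylation 2 bodies were higher and 3 lower, and of 19 genes of sterol and fatty acid synthesis 2 were higher and 2 lower. Taken by gene name instead of by list, the Nduf genes of the respiratory chain had 9 of 35 bodies higher and 3 lower.

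Contractile genes were called in both directions. Of 19 genes, 1 promoter was higher and 2 lower, beside 3.11% of all promoters higher and 3.04% lower. Of their bodies 4 were higher and 5 lower, beside 7.94% of all bodies higher and 4.63% lower. The higher bodies were those of Ctgf, Tpm1, Tpm2 and Myh9, and the lower ones those of Acta2, Tagln, Cnn1, Cnn2 and Tpm4. Tagln, the actin-binding protein SM22, had 10.7% of its body covered at day 35 and 59.2% at day 3. Cnn1, calponin, had 0% at day 35 and 16.2% at day 3, with 0% of its promoter covered at day 35 and 44.4% at day 3, and Acta2, smooth-muscle actin, had 32.9% of its body at day 35 and 62.6% at day 3. Ctgf, a matricellular growth factor, was higher, with 94.3% of its promoter covered at day 35 and 68.8% at day 3. Of the 10 housekeeping genes found, 0 promoters and 0 bodies passed in either direction, and Actb had 100% of its promoter and of its body covered at both days.

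**Figure D3:**
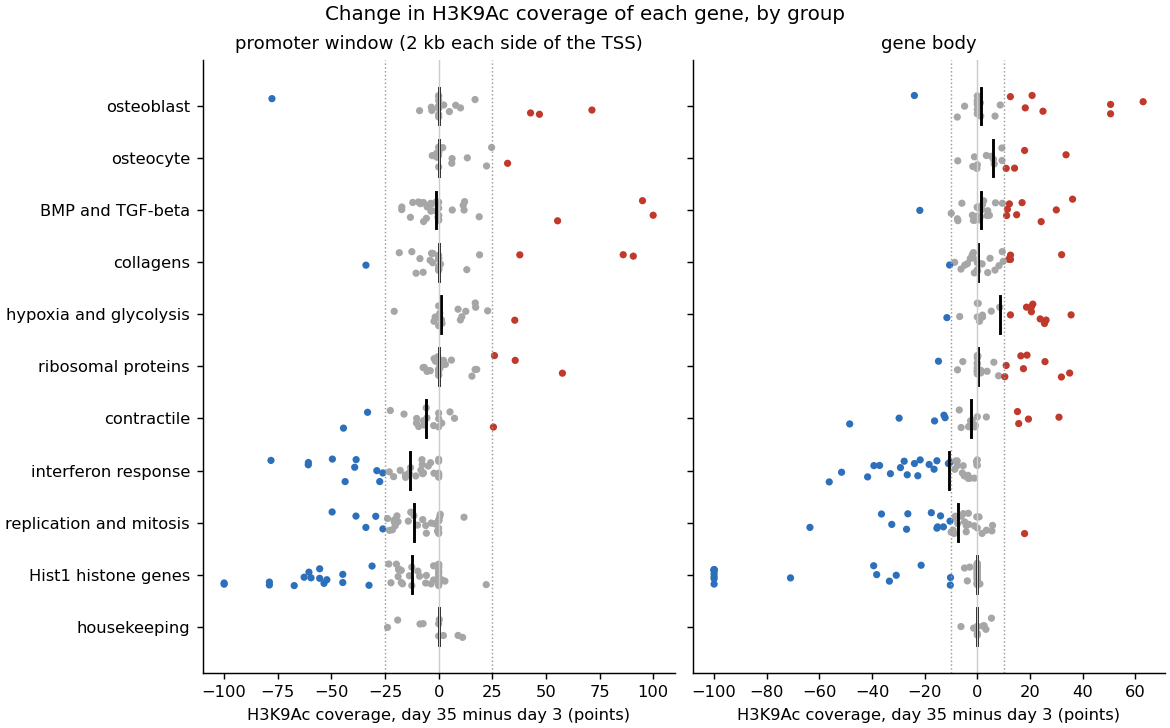
Change in H3K9Ac coverage of each gene (day 35 minus day 3, percentage points, x axis) by group, at the promoter window (left) and over the gene body (right). Points past 25 points (promoter) or 10 points (body) are coloured, red for higher and blue for lower, dotted lines mark those thresholds, and black bars are medians, with −13.4 points for interferon promoters and 8.51 points for hypoxia and glycolysis bodies.

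Matrix genes are counted here beside 3.11% of all promoters higher and 3.04% lower, and 7.94% of all bodies higher and 4.63% lower. Of 25 collagen genes 3 promoters were higher and 1 lower, and 4 bodies were higher and 1 lower. The lower promoter was that of Col18a1, the source of endostatin, with 31.2% at day 35 and 65.1% at day 3. Col5a1, a chain of collagen V, had 48.5% of its body covered at day 35 and 16.5% at day 3. Of 10 fibroblast genes 4 bodies were higher and 0 lower. Fn1, fibronectin, had 45.3% at day 35 and 6.07% at day 3, and Lum, the proteoglycan lumican, had 85.3% at day 35 and 34.2% at day 3. Thbs2, the matricellular protein thrombospondin 2, was among the 10 genes of at least 5 kb with the largest rises, with 85.9% at day 35 and 15.8% at day 3. In the same set were Rgs16, a regulator of G-protein signalling, with 100% at day 35 and 9.77% at day 3, Kat5, the acetyltransferase Tip60, with 100% at day 35 and 33.2% at day 3, and Aqp2, a water channel of the kidney, with 100% at day 35 and 33.2% at day 3. Gm10964, Ccdc130 and Iscu, an iron-sulfur scaffold protein, also belonged to it, as did Nup107, Rab3ip and Gm239 of the chromosome 10 stretch. The largest falls included Edn1, the vasoconstrictor endothelin 1, with 25.8% at day 35 and 100% at day 3, and Bcl6b, a transcriptional repressor, with 0% at day 35 and 47.7% at day 3. Zscan10 had 0% at day 35 and 42.2% at day 3, Dnajc22 had 15.6% at day 35 and 57.4% at day 3, and Sstr4, a somatostatin receptor, had 13.8% at day 35 and 56.4% at day 3.

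Counted as regions, a day-35 region that overlapped no day-3 region by 1 bp was called gained, and a day-3 region that overlapped no day-35 region was called lost. There were 15066 gained regions (27.2% of the day-35 list, 95% Wilson interval 26.8 to 27.6%) and 10276 lost ones (20.3% of the day-3 list, 19.99 to 20.7%). The intervals cover counting error only. By length, 86.9 Mb were covered at both days, 35.9 Mb at day 35 alone and 29.8 Mb at day 3 alone. The gained regions together spanned 13.6 Mb and the lost ones 8.72 Mb, so most of the length covered at one day alone was added to or taken from regions present at both days.

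Gained and lost regions were narrow, weak and far from start sites. The median width was 636 bp for gained and 632 bp for lost regions, against 1790 bp for kept regions of the day-35 list. By the authors' own peak score, used only within a list, 8.74% of the gained regions and 6.03% of the lost regions lay above the median of their list. Only 3.199% of the gained and 3.46% of the lost regions were centred within 1 kb of a TSS, against 21.3% of the kept. Introns held 52.3% of the gained and 46.8% of the lost regions, against 37.5% of the kept. Among the higher-scoring 50% of each list the counts were 5858 gained and 3579 lost. The day-35 list had the larger number of regions and the finer scores, whose 60 lowest distinct values fell on multiples of 0.275 at day 35 and 0.332 at day 3, within 0.052. With both lists limited to the same number of regions by score, 11513 regions were gained and 11487 lost, near-equal numbers that lists of equal size impose, and they spanned 11.9 Mb gained and 10.1 Mb lost.

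The other acetylation marks, measured in separate libraries, were called more often at the day on which H3K9Ac was called at these regions. At kept regions of the day-35 list H3K27Ac was called in 94.15% at day 35 and 98.0% at day 3, and H4K5Ac in 97.5% at day 35 and 97.4% at day 3. At gained regions H3K27Ac was called in 75.7% at day 35 and 49.8% at day 3, and H4K5Ac in 82.3% at day 35 and 57.6% at day 3. At lost regions H3K27Ac was called in 64.1% at day 35 and 85.8% at day 3, and H4K5Ac in 77.2% at day 35 and 87.9% at day 3. H3K4me1, the methylation of enhancers, was called in 83.6% of gained regions at day 35 and 73.2% at day 3, and in 85.0% of lost regions at day 35 and 94.5% at day 3. H3K4me3, the promoter methylation, was called in 0.710% of gained regions at day 35 and 0.173% at day 3. H3K4me2 was called in 52.5% of gained regions at day 35 and 12.4% at day 3 and was also the more frequent at day 35 in lost regions, with 48.9% at day 35 and 38.9% at day 3. Its covered length over the autosomes was 1.48 times as long at day 35 as at day 3. Both H3K27Ac and H4K5Ac were present at both days in 40.1% of gained and 57.5% of lost regions. They were present at day 35 alone in 17.9% of gained and 0.779% of lost regions, and at day 3 alone in 0.597% of gained and 9.01% of lost regions.

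**Figure D4:**
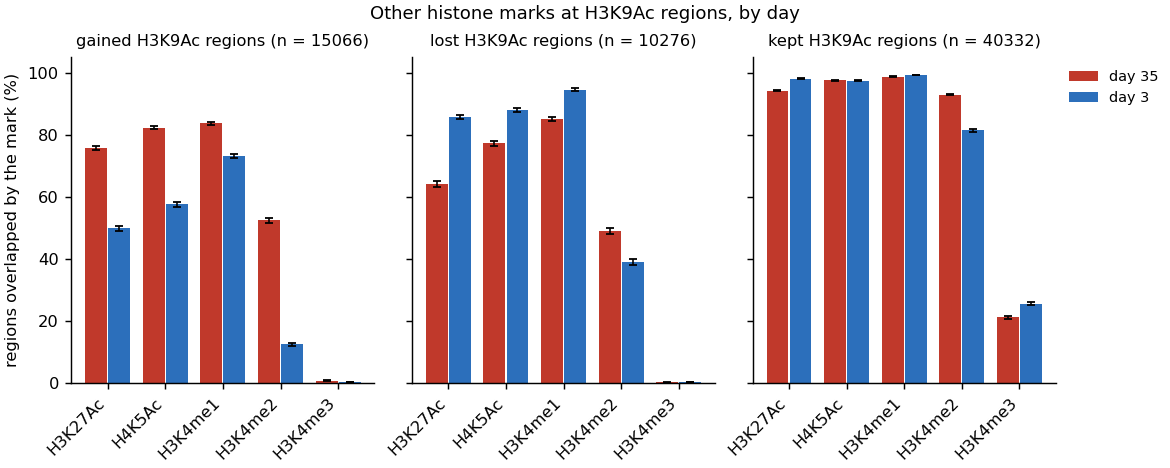
Percent of H3K9Ac regions overlapped by 5 other histone marks (y axis), at day 35 (left bar of each pair) and day 3 (right bar), for gained, lost and kept regions, with 95% Wilson intervals that cover counting error only. H3K27Ac stands at 75.7% at day 35 and 49.8% at day 3 in gained regions, and at 64.1% at day 35 and 85.8% at day 3 in lost ones.

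At the called promoters the other acetylation marks moved the same way more often than the opposite way. Where H3K9Ac was higher at the promoter, H3K27Ac was also higher by over 25 points in 40.2% (3.63% of all promoters) and H4K5Ac in 37.2% (4.73% of all). Where H3K9Ac was lower, H3K27Ac was lower in 45.7% (5.76% of all) and H4K5Ac in 26.1% (3.73% of all). H3K4me3 was higher at 2.27% of the higher promoters and lower at 18.4% of the lower ones, against 0.221% and 8.17% of all promoters. Over bodies, H3K27Ac was higher by over 10 points at 58.9% of the genes higher for H3K9Ac, against 16.9% of all, and lower at 40.7% of the lower ones, against 6.98% of all.

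Binding sites of VDR, the receptor of vitamin D, and of its dimer partner RXR, both profiled at day 35 only, were rare in the changed regions. RXR sites called in both replicates after 3 h of 100 nM 1,25(OH)2D3 lay in 1.93% of gained and 2.83% of lost regions, against 11.05% of kept ones, and without replicate 2 they lay in 3.06% of gained and 4.15% of lost regions, against 15.3% of kept ones. VDR sites lay in 0.325% of gained and 0.350% of lost regions, against 1.93% of kept ones, and kept regions are the wider. Of the 1202 VDR sites, 762 lay in H3K9Ac at both days, 75 at day 35 alone, 64 at day 3 alone and 301 at neither. Vdr itself had 9.62% of its promoter covered at day 35 and 9.20% at day 3, and Cyp24a1, the hydroxylase that degrades the hormone and a strong target of VDR, had 0% at both days. None of the 22 vitamin D genes found passed at the promoter, beside 3.11% of all promoters higher and 3.04% lower. Of their bodies 5 were higher and 0 lower, beside 7.94% of all bodies higher and 4.63% lower. The higher ones include Tnfrsf11b, the decoy receptor osteoprotegerin, with 25.1% at day 35 and 5.85% at day 3.

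Of 15 short motifs searched in 300 bp at the centres of regions over 1 kb from a TSS, most differed by few points between classes. The GC box GGGCGG was less frequent in both changed classes, in 4.14% of gained and 4.11% of lost regions, against 7.34% of kept ones. So were the ETS letters CCGGAAG, in 1.19% of gained and 1.27% of lost regions, against 1.88% of kept ones. The interferon-stimulated letters GAAANNGAAA were in 5.05% of gained (4.70 to 5.41%), 7.99% of lost (7.48 to 8.54%) and 6.34% of kept regions (6.07 to 6.61%). The RUNX letters TGTGGTT were in 9.33% of gained, 9.26% of lost and 9.34% of kept regions, and the AP-1 letters TGANTCA in 12.7% of gained, 13.2% of lost and 13.01% of kept. Median GC content was 45.3% in gained, 43.7% in lost and 46.3% in kept regions. At promoters, CCAAT was in 31.3% of the higher, 45.6% of the lower and 37.6% of all, and GAAANNGAAA in 3.32% of the higher, 7.11% of the lower and 3.73% of all. CpG-rich promoters, with over 50% GC and an observed to expected CpG ratio over 0.6 in the 1 kb around the TSS, made up 46.8% of the higher, 55.0% of the lower and 45.2% of all.

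Part of the gained length lay in large stretches. In windows of 100 kb, 347 of 24731 gained over 10 kb of H3K9Ac and 172 lost over 10 kb, and the 10 largest gains all lay in a pair of stretches of chromosome 10. The first, chr10:115789494-117409454 of NCBIM37, holds 22 genes including Mdm2, the ubiquitin ligase of p53. It was bounded by the longest run on chromosome 10 of neighbouring day-35 H3K4me3 regions of at least 50 kb. Its high H3K4me3 coverage at day 35, given below, follows from that choice. H3K9Ac covered 68.6% of this stretch at day 35 and 15.4% at day 3, with 1 region reaching 222239 bp at day 35 and 23178 bp the widest at day 3. The second, chr10:67488127-68008555, holds Arid5b, a chromatin factor of mesenchymal cells, and was covered in 87.4% at day 35 and 27.8% at day 3. It was bounded by day-35 H3K9Ac regions of at least 20 kb within 500 kb of Arid5b. Its high H3K9Ac coverage at day 35 follows from that choice. H3K4me3 covered 90.9% of the first stretch at day 35 and 2.94% at day 3, H4K5Ac 76.1% at day 35 and 41.7% at day 3, H3K27Ac 51.6% at day 35 and 31.1% at day 3, and H3K9me3, a mark of silent chromatin, 48.3% at day 35 and 15.8% at day 3. Without both stretches 654 promoters and 1669 bodies were higher.

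Outside chromosome 10 the largest gain was a window at chr17:44500001-44600000, with 55.4 kb covered at day 35 and 16.1 kb at day 3 and no annotated protein-coding gene in it. The window that holds Pth1r had 53.5 kb at day 35 and 17.4 kb at day 3, the one in Col5a1 36.8 kb at day 35 and 1.46 kb at day 3, and the one in Lifr, the receptor of leukemia inhibitory factor, 46.6 kb at day 35 and 11.9 kb at day 3. The windows of Thbs2, Ptgis, which makes prostacyclin, and Mgll, a lipase of monoacylglycerols, came next. Losses were smaller. The largest was the window of Pax8, a thyroid and kidney factor, with 9.73 kb at day 35 and 35.1 kb at day 3, and the windows of Sned1, Glis1, Tprg, Ptn and Utrn were also among the 10 largest losses. The widest gained region outside chromosome 10, of 13732 bp at chr2:27859008-27872739, lay in an intron. Its centre lay at −7.09 kb from the nearest annotated transcript start, one of those of Col5a1 and not necessarily the start of the gene. The widest lost region, of 9350 bp at chr4:107274558-107283907, lay in an intron 77.0 kb from the nearest start site, that of Dmrtb1.

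Whole chromosomes also differed. The covered length at day 35 over day 3 ran between 0.894 on chromosome 13 and 1.24 on chromosome 1. On chromosome 1, 4.33% of promoters were higher and 2.20% lower, and on chromosome 13 1.40% were higher and 4.55% lower. Relative to each mark's own ratio over all autosomes, chromosome 1 stood at 1.18 for H3K9Ac, 1.23 for H3K27Ac, 1.18 for H3K4me1 and 1.42 for H3K9me3. Chromosome 14 stood at 0.885 for H3K9Ac, 1.10 for H3K27Ac and 1.11 for H3K4me1, and chromosome 13 at 0.849, 0.946 and 0.975 in the same order. Across the 18 chromosomes other than 10, Pearson's r of these ratios with H3K9Ac was 0.786 for H3K9me3, 0.780 for H3K4me3, 0.560 for H3K27Ac and 0.476 for H3K4me1, while H3K27Ac and H3K4me1 had 0.979 with each other. Each point is a chromosome of the same pair of libraries, and the values are descriptions. On the chromosomes whose H3K9Ac ratio lay within 10% of that of all autosomes, 6 of 22 interferon promoters and 5 of 28 of replication and mitosis were lower, 0 of either were higher, and beyond that the part of the chromosome-wide ratios in the gene counts was not tested.

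**Figure D5:**
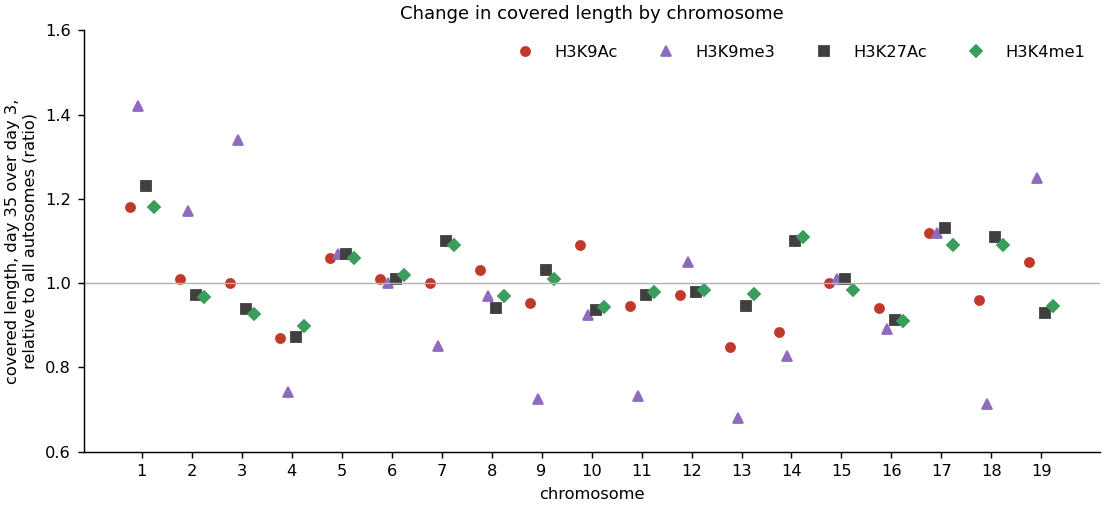
Covered length at day 35 over day 3, relative to the same ratio over all autosomes (y axis), by chromosome (x axis), for H3K9Ac (circles), H3K9me3 (triangles), H3K27Ac (squares) and H3K4me1 (diamonds), 1 library a day each. H3K9Ac stands at 1.18 on chromosome 1 and 0.849 on chromosome 13, and on chromosome 14 it is at 0.885 where H3K27Ac is at 1.10.

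The labelled cell type was checked at markers, which did not set osteoblast promoters apart from fibroblast ones. All 6 osteoblast markers had H3K9Ac at their promoters at both days, with a median coverage of 100% at each, and so had all 6 fibroblast markers, with medians of 100% at day 35 and 98.6% at day 3. Of the 5 autosomal osteocyte markers 4 had it at both days, with medians of 27.5% at day 35 and 21.2% at day 3 and Fgf23 at 0. Myogenic promoters were covered in 1 of 6 at day 35 and 2 of 6 at day 3, with Myod1, Myog and Pax7 at 0. Haematopoietic and osteoclast promoters were covered in 3 of 7 at day 35 and 1 of 7 at day 3, with Ptprc, Csf1r, Itgam and Calcr at 0. Of the covered ones Sfpi1 had 53.7% at day 35 and 0% at day 3, Acp5 12.5% and 0%, and Cd68 11.75% and 56.2%. Liver and gut promoters were covered in 1 of 6 at both days, and endothelial in 2 of 6 at day 35 and 3 of 6 at day 3. Adipocyte promoters were covered in 3 of 6 at day 35 and 2 of 6 at day 3, chondrocyte in 3 of 6 at day 35 and 4 of 6 at day 3, and neural in 3 of 6 at both days. Some of these were covered widely. Cebpa of the adipocyte set had 97.0% at day 35 and 100% at day 3, and Sox9 of the chondrocyte set 100% at both days. Tubb3 of the neural set had 79.3% at day 35 and 31.5% at day 3.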

How the data were processed

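H3K9Ac chromatin immunoprecipitation libraries of IDG-SW3 cells, 1 at day 35 and 1 at day 3, were compared from the authors' deposited region lists. Bowtie and HOMER are named and mm9 is given per the submitters' processing notes, and no version, parameter or read depth was given in the sources used here. Each deposited list gives positions, strand and a score from the authors for each region. That score served only for ranking within its own list. Samples were grouped by title, and no column of another sample was left out (0).

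Coverage, overlaps of at least 1 bp, Wilson intervals and motif matches were computed with Python 3.11.15, numpy 2.4.6, pandas 2.3.3 and scipy 1.17.1, and figures were drawn with matplotlib 3.10.9. Genes, transcripts and sequence came from NCBIM37 with GENCODE M1, on chromosomes 1 to 19, with 137 repeated symbols dropped. Of 675 distinct listed genes 661 were found. The coverage code was tested on simulated data. The members, gene lists and thresholds were chosen with earlier results of these data known. Named were the 10 largest rises and 10 largest falls at promoters, and over bodies of genes of at least 5 kb, where H3K27Ac and H4K5Ac moved the same way by over 10 points, the widest regions and largest windows, listed genes past a threshold, and a few fixed bone genes. Genes named outside this rule to show an unchanged value were chosen after their values were seen. Alternatives changed the window, threshold, score cut, transcript start and chromosomes used. VDR and RXR sites were those overlapping between both replicates. The input libraries were not used here.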

Additional observations from a re-analysis of the deposited data

How the results depend on the processing

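No paired analysis was possible because H3K9Ac had 1 library a day and no test was made; the shared replicate numbers belong to VDR and RXR. For the 10 largest rises and 10 largest falls at promoters and over bodies, no alternative turned the direction of the change. The other called genes were not checked for this. With the higher-scoring 50% of each list, 5858 regions were gained and 3579 lost. At over 50 points 138 promoters were higher and 107 lower, and at over 25 points 531 bodies were higher and 265 lower, since fewer genes pass a stricter threshold. In the promoter window of 1 kb each side 577 were higher and 561 lower, and in that of 5 kb 621 and 522. Leaving out 1 replicate at a time, VDR sites lay in 0.372 to 0.431% of gained, 0.409 to 0.467% of lost and 2.11 to 2.44% of kept regions, and RXR sites in 2.13 to 3.06%, 3.16 to 4.15% and 12.4 to 15.3% in the same order. Merging regions closer than 1 kb changed nothing, since no gap was under 2000 bp. Chosen after seeing the data were leaving out the Arid5b stretch, genes of at least 5 kb, and the chromosomes near the ratio of all autosomes, where 515 of 15824 promoters were higher and 474 lower. Of 15 osteocyte promoters 0 were higher in the 1 kb window and 3 with the higher-scoring 50% of each list. Of all 21281 promoters 808 were higher with that 50%. Of 6 Hist1 genes reaching beyond the first 2 kb 1 body was lower there, beside 816 of all 18190 such genes. Read depth is unknown, so no lower limit can be given for a region listed at 1 day alone.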

Other observations

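Several gene families outside the listed pathways held promoters that were higher at day 35. Of 20 semaphorins, guidance proteins of axons and vessels, 4 promoters were higher and 1 lower. Sema7a had 100% of its promoter covered at day 35 and 65.4% at day 3, and Sema3b had 100% at day 35 and 46.2% at day 3, while Sema3e had 24.4% at day 35 and 60.7% at day 3. Of 24 Adamts genes, proteases of the matrix and their relatives, 4 were higher and 0 lower, with Adamts12 at 100% at day 35 and 70.5% at day 3. Of 11 aquaporins 2 were higher and 0 lower. Aqp5, a water channel of glands, had 100% at day 35 and 19.4% at day 3, and Aqp2 had 56.9% at day 35 and 0% at day 3. Of 12 Tbx genes 2 were higher and 0 lower, with Tbx2 at 100% at day 35 and 55.5% at day 3. All 1106 olfactory receptor genes together had 0 promoters higher and 1 lower. The families were picked after the values of all genes were seen, and these are counts to be read beside the 3.11% of all promoters that were higher and the 3.04% that were lower.

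Hox genes, which pattern the body axis, changed at single members of several clusters. Of 37, 4 promoters were higher and 1 lower, beside 3.11% of all promoters higher and 3.04% lower. Hoxd8 had 97.1% of its promoter covered at day 35 and 57.9% at day 3, and Hoxa13 had 68.1% at day 35 and 100% at day 3. Potassium channels had 7 of 92 promoters higher and 2 lower, to be read beside the same shares. Among the higher ones Kcnn1 had 100% at day 35 and 32.7% at day 3, and Kcnmb4 lies inside the chromosome 10 stretch.

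One of the 10 widest lost regions, of 6381 bp near the start of chromosome 9 at chr9:2999914-3006294 and nearest to Gm11168, carried H3K4me3 over 0% of its length at day 35 and 99.6% at day 3. H3K27Ac, H4K5Ac and H3K4me1 covered 0% of it at both days. How uniquely reads align there was not tested, so a change of chromatin at this locus cannot be read from these values.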
